A study of Mus musculus with 3 samples.

Results

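The 36 genes described here encode aminoacyl-tRNA synthetases of the mouse, 20 of them cytosolic enzymes and 16 mitochondrial ones. They were taken by name, and a 3′ end site counted for a gene when it lay on the gene's strand, from the gene start to 1000 bases past the gene end in GENCODE M21 (mm10). All 36 names were matched, 35 by the exact symbol and Mars1 through its annotation name Mars, and all 36 lie on autosomes and had listed sites. The cytosolic genes held 233 sites and the mitochondrial genes 125, so that the list held 358 of the 178115 sites in the series.

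The sites come from poly(A) site sequencing (PAS-seq, prepared with the QuantSeq method), in which each read marks the 3′ end of a polyadenylated RNA. The cells were of the F121-9 line of hybrid mouse embryonic stem (ES) cells, whose parents are Cast and 129 mice, with no treatment named in the labels. All 3 libraries form 1 group, are labelled p14 and as replicates 1, 2 and 3, and started from 500 ng of RNA each. Separate cultures are not named, so every p-value here measures the spread between these libraries, which may be technical. No conditions could be contrasted, and the comparisons are between genes and between sites of one gene.

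Between 10147672 and 13513327 reads per library lay at listed sites, and the synthetase genes took 0.694%, 0.731% and 0.762% of them in replicates 1, 2 and 3. The 3 libraries differed from each other by far more than counting error over the member genes, so none was counted as a copy. Replicate 3 has no reads on the X chromosome, and 13040404 of its 13040620 listed reads are autosomal. Replicates 1 and 2 have 9326090 of 10147672 and 12500338 of 13513327 autosomal reads, with 333238 and 453670 on X. Replicate 3 thus also lacks most other reads off the autosomes, and its synthetase share has another base than theirs. RPM are reads scaled to library size, in the authors' unit of reads per 1000000. At well-read autosomal sites the RPM of replicate 3 lay 0.13 on the log2 scale above both other libraries. All 8 ES cell markers looked for, such as Nanog and Sox2, had 78.3 to 724 RPM. Of 7 fibroblast markers, which would mark feeder cells, only Thy1 reached 10 RPM, Postn and Dcn were at 0, and their summed level was 50.8 to 133 RPM per library. In such bulk libraries, more cells with a transcript and more transcript per cell cannot be told apart.

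An aminoacyl-tRNA synthetase joins an amino acid to the tRNAs that carry it to the ribosome, so every amino acid needs an enzyme of this kind. Protein synthesis in the cytosol and in mitochondria mostly uses separate enzymes, all of them encoded in the nucleus. Gars (glycine) and Kars (lysine) are exceptions: each gene supplies both compartments. Mitochondria have no glutaminyl-tRNA synthetase; there Ears2 charges the tRNA with glutamate, which an amidotransferase converts. Several cytosolic enzymes form the multi-synthetase complex together with scaffold proteins.

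The cytosolic synthetase genes were expressed far above the typical gene and the mitochondrial ones near it. The median cytosolic gene had 263, 286 and 285 RPM in replicates 1, 2 and 3, and the median mitochondrial gene 25.2, 26.8 and 30.1 RPM. Over the 12190 autosomal protein-coding genes that averaged 1 RPM or more, the median was 17.5, 18.04 and 20.1 RPM. Since a transcript gives reads from its 3′ end alone, these levels need no scaling to transcript length. The cytosolic median lay 3.34 ± 0.09 above the mitochondrial one on the log2(RPM + 0.1) scale (SD, n = 3 libraries). This difference is many times the spread between libraries, which does not measure the spread between genes. The 2 classes overlapped, with Iars2 (mean 122 RPM) above Hars (82.5 RPM). At least 100 RPM was reached by 19 of 20 cytosolic genes, all but Hars, and by 1 of 16 mitochondrial genes, Iars2, against 13.8% of the coding genes. In sum the cytosolic genes held 6132 ± 342 RPM and the mitochondrial genes 557 ± 13.1 RPM (SD, n = 3).

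**Figure D1:**
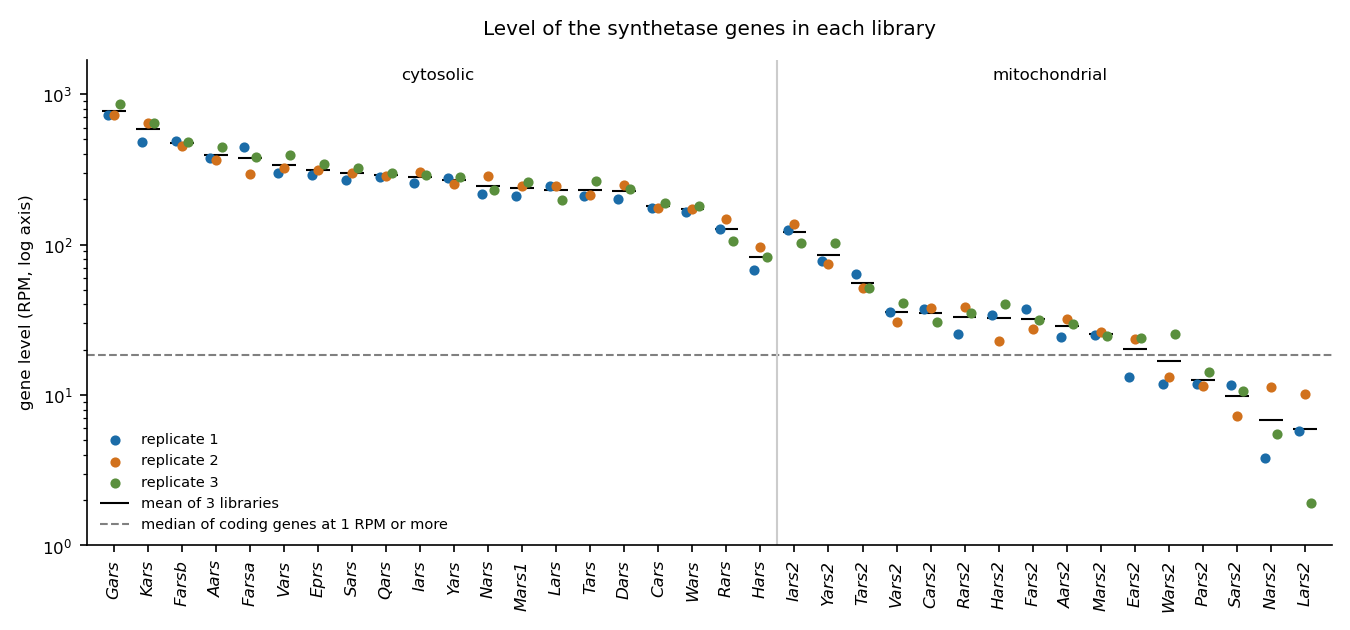
Level of each synthetase gene in RPM (log axis), 1 point per library, a bar for the mean, cytosolic genes left and mitochondrial genes right, each in order of the mean; the dashed line is the median of coding genes at 1 RPM or more. Cytosolic genes run from Gars (mean 771 RPM) to Hars (82.5 RPM) and mitochondrial genes from Iars2 (122 RPM) to Lars2 (5.97 RPM).

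The 2 highest cytosolic genes were those that also serve the mitochondria. Gars had 727, 723 and 864 RPM in replicates 1, 2 and 3 and ranked 113 among the coding genes, and Kars had 479, 648 and 644 RPM. Gars was above every other synthetase gene in each library, and the Kars libraries overlapped those of the next gene, Farsb. Farsb and Farsa encode the beta and alpha subunits of the cytosolic phenylalanyl-tRNA synthetase. Farsb had 490, 454 and 477 RPM, and Farsa had 446, 294 and 381 RPM. Farsb was thus the higher of the pair in all 3 libraries, and the level of Farsa was the more variable. Aars, the alanyl-tRNA synthetase gene, had 377, 368 and 446 RPM, of which part lies at a site shared with another gene, as described with its sites.

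At the low end of the cytosolic genes stood the enzymes for aspartate, cysteine, tryptophan, arginine and histidine. Dars had 201, 250 and 235 RPM, Cars had 175, 176 and 188 RPM, and Wars had 164, 171 and 181 RPM. Rars had 126, 148 and 106 RPM, and Hars had 67.8, 96.2 and 83.3 RPM. The ranges of Wars, Rars and Hars did not overlap each other, and Hars was the lowest cytosolic gene in each library. The middle of the order cannot be resolved: of 19 pairs of neighbouring cytosolic genes, 14 had overlapping ranges.

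Among the mitochondrial genes, Iars2 (isoleucine) had 126, 138 and 102 RPM, Yars2 (tyrosine) had 78.1, 73.8 and 102.9 RPM, and Tars2 (threonine) had 63.4, 51.8 and 51.2 RPM. The Iars2 and Yars2 ranges overlapped, while Tars2 lay below both in every library and above the remaining mitochondrial genes. The lowest were Sars2 (serine) with 11.7, 7.27 and 10.7 RPM, Nars2 (asparagine) with 3.79, 11.3 and 5.47 RPM, and Lars2 (leucine) with 5.77, 10.2 and 1.92 RPM. The ranges of the last 3 overlapped. In all, 12 of 15 neighbouring pairs of mitochondrial genes had overlapping ranges.

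The levels of the cytosolic genes varied little between libraries. Their median coefficient of variation was 10.6%, against 11.5% for the 1909 coding genes in the same range of reads. For the mitochondrial genes it was 16.8%, against 20.7% for 7585 coding genes in their range. Of the members with at least 100 reads on average, Wars2 varied most (11.9, 13.2 and 25.4 RPM in replicates 1, 2 and 3, 44.2%), then Ears2 (13.3, 23.6 and 24.0 RPM, 29.9%) and Hars2 (34.1, 22.8 and 40.2 RPM, 27.3%). With the libraries scaled to autosomal reads these became 37.9%, 28.2% and 23.5%, so that the offset of replicate 3 moves them by a few points.

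Set side by side for the same amino acid, the cytosolic gene was the higher one in every library in all 17 pairs. The median of the mean log2 ratios of cytosolic over mitochondrial RPM was 3.43. The widest gap was at leucine, where Lars had 230 ± 28.1 RPM and Lars2 5.97 ± 4.16 RPM (SD, n = 3), with a log2 ratio of 5.53 ± 1.02. For asparagine, Nars had 245 ± 37.6 RPM and Nars2 6.86 ± 3.95 RPM, with a log2 ratio of 5.27 ± 0.58. The fold of Lars over Lars2 ranged from 24.1 to 102.97 between libraries, and Lars2 and Nars2 averaged 81 and 95.7 reads per library.

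The narrowest gaps were at isoleucine and histidine. Iars had 283 ± 22.8 RPM and Iars2 122 ± 18.3 RPM (SD, n = 3), a log2 ratio of 1.22 ± 0.25. Hars had 82.5 ± 14.2 RPM and Hars2 32.4 ± 8.84 RPM, a log2 ratio of 1.37 ± 0.61. The first narrow gap comes with the highest mitochondrial level and the second with the lowest cytosolic level. Eprs, a bifunctional enzyme that charges both glutamate and proline tRNAs in the cytosol, had 315 ± 28.3 RPM, against 20.3 ± 6.07 RPM for Ears2 and 12.5 ± 1.48 RPM for Pars2.

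**Figure D2:**
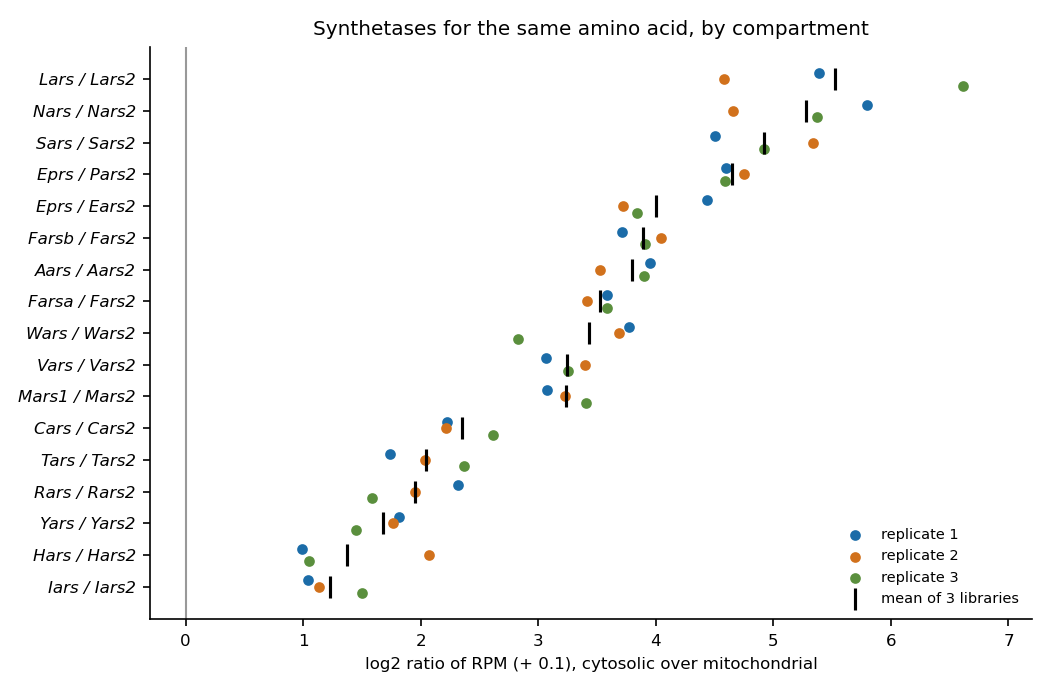
Log2 ratio of RPM (+ 0.1) of the cytosolic over the mitochondrial gene for the same amino acid, 1 point per library and a black tick for the mean, in order of the mean. All points lie above 0, from Iars over Iars2 (mean 1.22) to Lars over Lars2 (mean 5.53).

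The 8 genes of the multi-synthetase complex (Eprs, Iars, Lars, Mars1, Qars, Rars, Kars and Dars) had levels like those of the other cytosolic genes. Their median was 265 ± 11.7 RPM, against 289 ± 15.5 RPM for the 12 cytosolic genes outside the complex (SD, n = 3). Each of the 8 had a single site with at least 10% of its reads, as did 56.2% of coding genes with at least 50 reads on average. In the 8 genes that site held 90.4% to 99.4% of the reads. Of the 12 others, 6 had a second site with at least 10%, namely Aars, Sars, Tars, Cars, Wars and Hars. In Aars that site is shared with Exosc6, Sars had 96.7% of its reads at 1 place once sites under 25 bases apart were joined, and Cars had 95.2% at 1 site without A-rich sites, those with at least 12 A or a run of 6 in the next 20 bases.

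Most synthetase genes ended at 1 dominant place. Cleavage of a new transcript is directed by a poly(A) signal, most often the hexamer AATAAA or ATTAAA, a short way upstream of the site, and a gene with several sites can make transcripts with different 3′ ends. The most used site held a median of 94.3% of the reads in cytosolic genes and 87.6% in mitochondrial genes, against 85.5% over 9937 coding genes with at least 50 reads on average. In the same read ranges the coding genes had 93.8% and 84.1%. At least 90% of the reads lay at 1 site in 13 of 20 cytosolic and 6 of 16 mitochondrial genes, against 42.6% of the coding genes. Counting sites with at least 10% of a gene's reads, 24 members had 1 such site, against 56.2% of the coding genes, 9 had 2, and Mars2, Ears2 and Wars2 had 3.

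**Figure D3:**
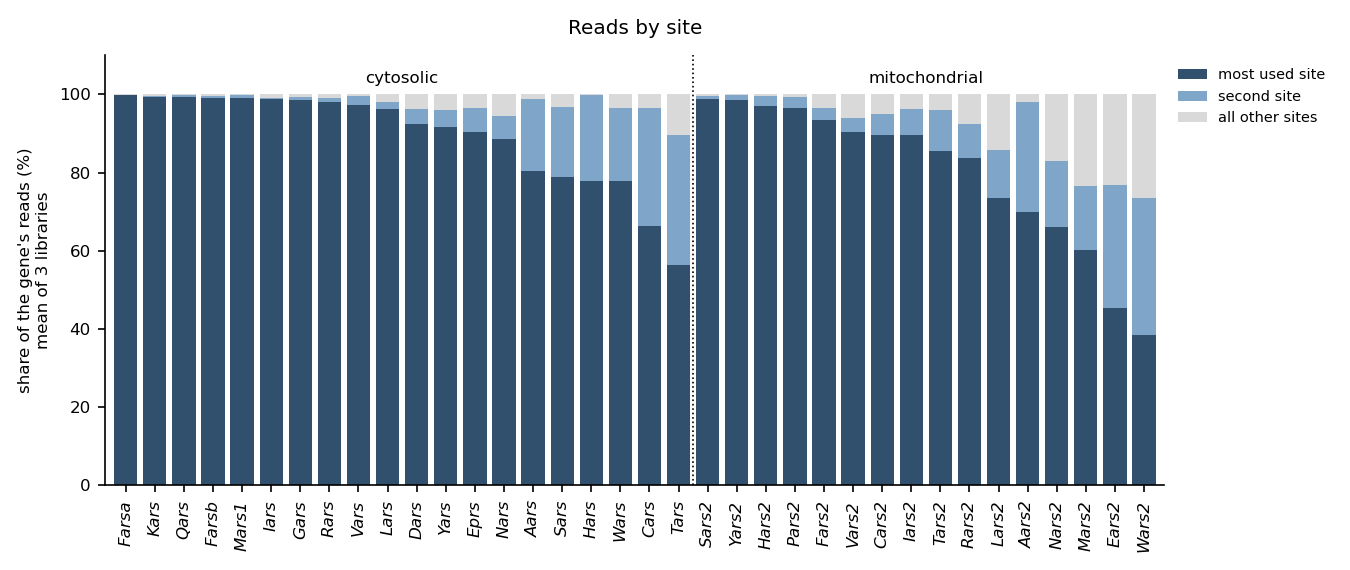
Share of each gene's reads at its most used site, its second site and all other sites, in percent, mean of 3 libraries, cytosolic genes left and mitochondrial genes right. Farsa has 99.9% at 1 site, whereas Wars2 and Ears2 have 38.5% and 45.3%.

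The 3′ untranslated stretch up to the most used site was short. Its median length from the nearest annotated stop codon was 225 bases in cytosolic and 313 in mitochondrial genes, against 643 over the coding genes, and 435 and 685 in the same read ranges. It ran from 66 bases in Mars1 to 695 in Yars among cytosolic genes, and from 67 bases in Cars2 to 1569 in Wars2 among mitochondrial ones. For 17 of 36 genes the most used site lay within 10 bases of the annotated gene end, against 49.3% of the coding genes, a share near this background. Among the other 19 is Fars2 (mitochondrial phenylalanine enzyme), with 93.5% ± 2.93 of its reads at the end of an earlier coding transcript, at position -188688 relative to the annotated gene end.

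The canonical signal was listed for most cytosolic genes and for under 50% of the mitochondrial ones. Of the most used sites, 17 of 20 in cytosolic genes had the authors' listed hexamer AATAAA, against 7 of 16 in mitochondrial genes and 67.0% of the coding genes. ATTAAA without AATAAA was listed at 2 cytosolic sites (Gars and Iars), 4 mitochondrial sites (Iars2, Hars2, Mars2 and Nars2) and 15.8% of the coding genes. Without either of these, at least 1 other of the 18 listed hexamers stood at 1 cytosolic site and 4 mitochondrial sites, against 13.5%. No hexamer was listed at Ears2, against 3.70%. By reads, AATAAA sites took 74.5% ± 0.50 of cytosolic and 41.0% ± 2.02 of mitochondrial synthetase reads (SD, n = 3). The hexamers begin 7 to 60 bases before the site on its own strand, and a site with several was given AATAAA first, then ATTAAA.

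**Figure D4:**
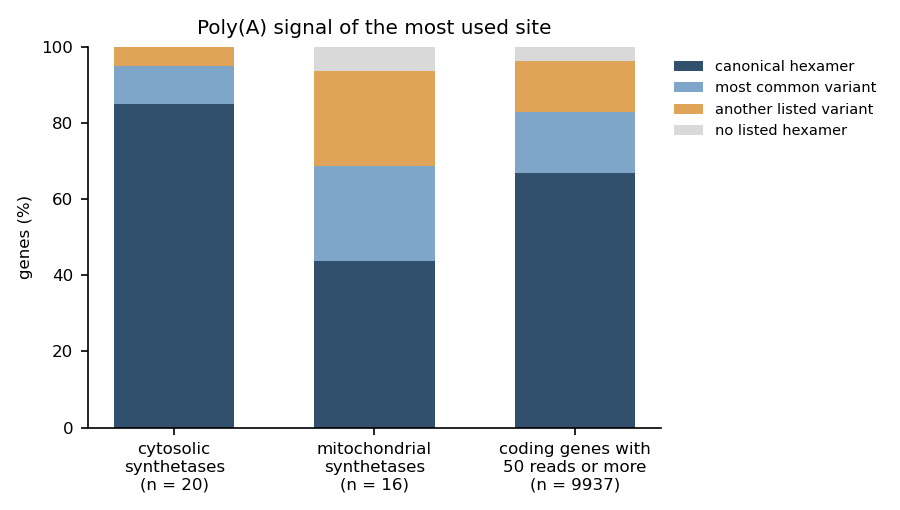
Percentage of genes by the signal listed at the most used site, for cytosolic synthetases, mitochondrial synthetases and coding genes with at least 50 reads; the canonical hexamer is AATAAA and its most common variant ATTAAA. The canonical one makes up 85.0% of the cytosolic, 43.8% of the mitochondrial and 67.0% of the background sites.

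The following sequences show these signals at main sites, as the last 30 bases up to and including the site, 5′ to 3′, read from the reference genome (RefSeq GRCm38.p6, the build of the files) and not from the Cast or 129 alleles. Capitals mark the listed hexamers. Gars and Kars are the most expressed members, Rars is the cytosolic gene with neither common hexamer, and Vars2 and Ears2 are mitochondrial genes with a rare one or none.
Gars, chr6:55079463-55079492, plus strand: cacaATTAAAgttgaaggaattctgaacac
Kars, chr8:111993444-111993473, minus strand: ctcgttaccaAATAAAtcatttctctcttt
Rars, chr11:35808382-35808411, minus strand: cacaagagtAGTAAAagaattttcacagct
Vars2, chr17:35656382-35656411, minus strand: tggaGATAAAagGATAAAccccaagcacgc
Ears2, chr7:122038821-122038850, minus strand: tattttttttaaagactttttaaaaatgtg
These 5 sites are in the 3′ untranslated part of the last exon. The match of a hexamer is a description of the letters and not a test of its use.

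Where a gene had several sites in the last exons of its coding transcripts, the most distal and most proximal were compared within each library. Only sites with at least 5% of the last-exon reads were used. Such pairs are called tandem sites here. When both follow the same stop codon, they change the length of the 3′ untranslated region. Pairs that follow different stop codons were not set apart, in the members or over all genes. The test was limma on the log2 ratio of distal over proximal RPM (+ 0.05), fitted over all 4210 genes with such a pair and at least 50 reads, and a gene was called at an adjusted p under 0.05 with at least a 2-fold ratio. Of the 36 members 12 had a testable pair, against 41.7% of coding genes with at least 50 reads. Nars2, Rars2, Wars and Hars were called distal, against 28.6% of all genes tested. Nars, Iars2 and Sars were called proximal, against 11.8%. The median log2 ratio was 1.04 over the 12 members and 1.33 over all genes. All calls of this test, in members and in other genes, were lost when any 1 library was left out, whereas edgeR on the recovered reads kept 6 of the 7. With all libraries edgeR called Hars, Wars and Rars2 distal, as 28.7% of genes, and Nars, Iars2 and Sars proximal, as 12.6%. These 6 calls also held with any 1 library left out. Of all genes, edgeR then called 799 to 1007 distal and 390 to 462 proximal, out of 4126 to 4294 tested.

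**Figure D5:**
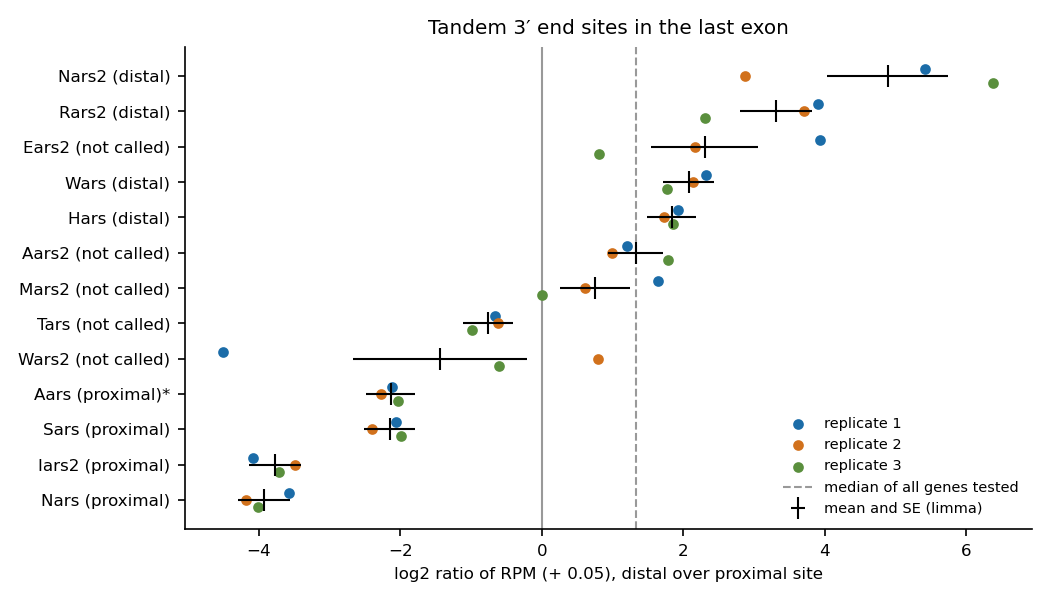
Log2 ratio of RPM (+ 0.05) at the distal over the proximal site in last exons, for members with a testable pair. Each library is 1 point, shown with the limma mean and SE. The dashed line is the median of all genes tested (1.33), and the star marks Aars, whose distal site another gene shares. Hars and Wars lie above 0 and Sars, Iars2 and Nars below 0 with a narrow spread, and Wars2 has libraries on both sides.

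Wars, the cytosolic tryptophan enzyme, used mainly a distal site 1171 bases past its proximal one. The distal site had 131, 136 and 135 RPM and the proximal site 26.2, 30.9 and 39.7 RPM in replicates 1, 2 and 3. The distal site thus took 83.3%, 81.4% and 77.3% of the pair, a log2 ratio of 2.07 (SE 0.36, limma adjusted p = 0.0295). The 2 sites follow different annotated stop codons, the distal one by 278 bases and the proximal one by 60 bases. They are shown because the distal one has AATAAA and the proximal one none of the listed hexamers.
Wars distal, chr12:108860034-108860063, minus strand: aggaaaaaacAATAAActttgttgagctcc
Wars proximal, chr12:108861205-108861234, minus strand: acccaccctgtcaaatcaagtcacactccc

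Hars, the cytosolic histidine enzyme, also used mainly its distal site, 227 bases past the proximal one. Both sites follow the same stop codon, the distal one by 282 bases and the proximal one by 55. Its distal site, with AATAAA, had 53.8, 73.6 and 65.1 RPM, and its proximal site, with no listed hexamer, 14.1, 22.1 and 17.99 RPM. The distal site was the higher in every library, with a log2 ratio of 1.84 (SE 0.35, limma adjusted p = 0.0322). With TMM scaling of the sites in edgeR the ratio was 0.88, under the 2-fold minimum, and Hars was not called; this scaling lowered the median ratio of all genes to 0.40.

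Among mitochondrial genes, Rars2 (arginine) and Nars2 were called distal. Rars2 had 23.7, 33.9 and 24.2 RPM at its distal and 1.53, 2.56 and 4.83 RPM at its proximal site, only 62 bases apart. Its log2 ratio was 3.31 (SE 0.51, limma adjusted p = 0.0257). Neither site is listed with AATAAA or ATTAAA. Capitals mark the listed variants that fall within the 30 bases shown.
Rars2 distal, chr4:34660134-34660163, plus strand: agAATAGAatttaaagtattattctgtccc
Rars2 proximal, chr4:34660072-34660101, plus strand: ttctaGATAAAtatgttttttatgcaaatg
Nars2 had 2.07, 7.67 and 4.12 RPM at its distal site, while its proximal site was read in replicate 2 alone, at 1.01 RPM. Its log2 ratio of 4.89 (SE 0.85, limma adjusted p = 0.0292) depends on the pseudocount, and edgeR did not call it (adjusted p = 0.0735).

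Nars, the cytosolic asparagine enzyme, was called the other way from its mitochondrial partner. Its distal site had 15.97, 14.3 and 12.4 RPM and its proximal site, 129 bases upstream and with AATAAA, 191, 260 and 201 RPM. The distal share was 7.72%, 5.20% and 5.80%, with a log2 ratio of -3.93 (SE 0.37, limma adjusted p = 0.0241). The difference between the 2 genes was not tested.

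Iars2, the most expressed mitochondrial gene, also favoured its proximal site. The distal site, 61 bases further, had 6.68, 10.7 and 6.97 RPM, and the proximal one 114, 121 and 91.9 RPM, a log2 ratio of -3.76 (SE 0.37, limma adjusted p = 0.0241). The proximal site has ATTAAA and the distal one is listed with AATAAA, so the less used site is the one with AATAAA. The AATAAA lies outside the 30 bases shown, which for the distal site hold no listed hexamer.
Iars2 distal, chr1:185286641-185286670, minus strand: cattctgggaaactcccagcatatgatggt
Iars2 proximal, chr1:185286702-185286731, minus strand: tatattttATTAAAacttttttgactcagt

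In Sars, the cytosolic serine enzyme, the sites lay 17 bases apart. The distal one had 51.3, 45.5 and 62.4 RPM and the proximal one 214, 241 and 248 RPM, a log2 ratio of -2.15 (SE 0.36, limma adjusted p = 0.0274). AATAAA is listed for the proximal site alone, and begins 50 bases before it. Hexamers are listed up to 60 bases before a site, and the distal site lies 17 bases further on. This AATAAA could thus not be listed for the distal site, and whether both sites follow 1 signal was not tested.

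Tars, the cytosolic threonine enzyme, divided its reads between a pair of sites. Its distal site had 70.9, 76.3 and 80.5 RPM and its proximal site, 57 bases upstream, 112, 117 and 160 RPM. The distal site took 38.7%, 39.5% and 33.4% of the pair in replicates 1, 2 and 3, lower than the proximal site in each. The log2 ratio of -0.76 (SE 0.36, limma adjusted p = 0.152) was not called and is under the 2-fold minimum. Tars was called proximal with TMM scaling in edgeR (log2 ratio -1.72, adjusted p = 0.000279), while without that scaling edgeR (adjusted p = 0.0135) and limma with a variance trend (adjusted p = 0.00233) passed the p threshold and not the 2-fold minimum. The highest adjusted p for that pair with all 3 libraries was 0.259, in limma with no read filter. Both sites carry AATAAA.
Tars distal, chr15:11383661-11383690, minus strand: ggcgttaaAATAAAatttactaccaaagat
Tars proximal, chr15:11383718-11383747, minus strand: caattaggaAATAAAaagattttaaatgtg

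Aars2, the mitochondrial alanine enzyme, had 16.96, 19.99 and 23.04 RPM at its distal and 7.31, 10.03 and 6.68 RPM at its proximal site. The distal site was higher in every library, with a log2 ratio of 1.33 that missed the threshold (SE 0.39, limma adjusted p = 0.0634). With the same pair and all 3 libraries, other settings gave it an adjusted p of 0.0104 (limma with a variance trend) to 0.553 (edgeR with TMM). The more used distal site is the one without AATAAA, with a run of 3 overlapping variants in its place.
Aars2 distal, chr17:45520813-45520842, plus strand: gtggtacacAATAATACAATAATttggtgt
Aars2 proximal, chr17:45520670-45520699, plus strand: tgggagcagctAATAAAagtcttccacagg

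The cytosolic Aars could not enter that fit, because its distal site is shared. The site lies 2050 bases past the proximal one, near the end of a last exon that also contains the whole of Exosc6, a gene for an RNA exosome subunit on the same strand. Reads there cannot be assigned to one gene. The distal site had 69.5, 62.3 and 87.2 RPM and the proximal site 301, 301 and 356 RPM, so that the distal share was 18.7%, 17.2% and 19.7%. With such shared sites kept, as chosen after seeing the data, the log2 ratio was -2.14 (SE 0.35, limma adjusted p = 0.0267) and Aars was called proximal, as were 11.9% of genes. Without the 2 sites shared with Exosc6 the level of Aars was 322 RPM in place of 397 RPM.
Aars distal, chr8:111057589-111057618, plus strand: tattttatgactggaAATACAtctgttgtg
Aars proximal, chr8:111055539-111055568, plus strand: ctgcagaaAATAAAaaggaccatgtgcaat

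Mars2, the mitochondrial methionine enzyme, spread its reads over 4 sites and 4959 bases. The outer pair had 4.601, 3.30 and 4.48 RPM at the distal and 1.44, 2.15 and 4.48 RPM at the proximal site. The log2 ratio of 0.75 (SE 0.50, limma adjusted p = 0.268) was not called. Most reads lay between these sites: a site with ATTAAA, 1048 bases past the stop codon, held 64.7%, 56.8% and 59.1% of the gene's reads.
Mars2 main site, chr1:55240019-55240048, plus strand: cttttaacttATTAAAgtgtggttctaagt

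Wars2 and Ears2 were the members without a majority site, against 14% of the coding genes. In Wars2, the mitochondrial tryptophan enzyme, the most used site held 30.3%, 41.3% and 44.0% of the reads in replicates 1, 2 and 3. A second site 117 bases upstream held 46.2%, 38.3% and 20.7%, so the order of the 2 sites was not the same in every library. Both have AATAAA.
Wars2 downstream of the pair, chr3:99218447-99218476, plus strand: aaaAATAAATAAAtgtttacttttaatgtt
Wars2 upstream of the pair, chr3:99218330-99218359, plus strand: gtGATAAATAAAggagagaaccaactcctc
The outer Wars2 sites were read rarely, with 0, 4 and 36 reads at the distal and 12, 2 and 55 reads at the proximal one, and their log2 ratio was -1.44 (SE 1.23, limma adjusted p = 0.373).

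In Ears2 the most used site, with no listed hexamer, held 46.9%, 53.4% and 35.6% of the reads, and 50.2% on average without replicate 3. A further site, 163 bases downstream and with ATTAAA, held 30.6%, 26.9% and 36.8%. It lies in the last exon of a transcript annotated as a retained intron, and was therefore counted as another exon. The pair in the coding last exon, 39 bases apart, had 6.22, 12.6 and 8.53 RPM at the distal and 0.361, 2.76 and 4.83 RPM at the proximal site. Its log2 ratio of 2.31 (SE 0.76) missed the threshold (limma adjusted p = 0.0789), and other settings on that pair with all 3 libraries gave an adjusted p of 0.0294 (limma, pseudocount of 0.5 RPM) to 0.345 (edgeR with TMM).
Ears2 further site, chr7:122038658-122038687, minus strand: acttggaATTAAAgccaggtcttgtggaag

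Intronic sites took 0.369% ± 0.134 of the cytosolic and 3.84% ± 0.236 of the mitochondrial synthetase reads (SD, n = 3). In sites read in every library these were 0.0948% and 1.99%, and without A-rich sites the mitochondrial share was 2.08%. The median cytosolic gene had 0.165% intronic reads, against 0.124% for coding genes in the same read range. The median mitochondrial gene had 1.74%, against 0.931% in its read range, so the background also differed between the 2 ranges. At least 10% of the reads were intronic in 4 members, all mitochondrial, against 14.9% of the coding genes. Nars2 had 26.2%, 23.2% and 24.7% in replicates 1, 2 and 3, Tars2 had 20.9%, 13.2% and 9.17%, Wars2 had 14.4%, 16.3% and 8.96%, and Lars2 had 7.81%, 21.1% and 7.41%. The shares were alike between libraries in Nars2, but the sites were not: its leading intronic site was read in replicates 1 and 3, and its next in replicate 2 alone. Of 9 intronic sites with at least 3% of a member's reads, 4 were read in 1 library and 4 in every library, and 3 lay before an A-rich stretch, in which the primer can bind within a transcript. The leading intronic sites of Nars2 and Tars2 are among these, with 16 and 12 A in the next 20 bases. Without A-rich sites, chosen after seeing the data, 2 members had at least 10% intronic reads, against 13.6% of the coding genes. Wars2 then had 13.1% on average and Lars2 12.1%, while Nars2 had 0%, 19.4% and 0% in replicates 1, 2 and 3 and Tars2 1.07%, 7.48% and 4.11%.

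Sites in exons other than the last were prominent in Cars, the cytosolic cysteine enzyme. They held 35.03%, 31.05% and 31.2% of its reads, mostly at 1 site at codon 733 of 831, which was 33.5%, 28.8% and 28.4% of all Cars reads. That site also lies in the last exon of a transcript annotated as a retained intron, and was therefore counted as another exon. No hexamer is listed for it, and 12 of the 20 bases after it are A, which puts it among the A-rich sites. Without A-rich sites the level of Cars was 125 RPM in place of 180 RPM. The 20 bases that follow the site are given here, with a run of 4 A in capitals, below the 30 bases up to the main site.
Cars main site, chr7:143557706-143557735, minus strand: gacactgatAATAAAttcttctgaacggtg
Cars after the inner site, chr7:143561859-143561878, minus strand: agaaggaaggaaagAAAAgg

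Smaller coding-exon sites stood in Eprs (codon 592 of 1512, with 9.16%, 3.54% and 5.51% of its reads), Tars (codon 24 of 722, with 6.57%, 4.69% and 5.44%) and Dars (codon 162 of 501, with 4.57%, 2.78% and 4.59%). All were read in every library, and none met the A-rich minimum. Of the 20 bases that follow, 11 are A at the Eprs site and 9 at the Tars site. The Eprs site thus lies just under that minimum, and whether the primer bound within the transcript at these sites was not tested. A coding-exon site of Lars2 had 10 reads in replicate 3 and none in the others.

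Of 21 related genes, 9 had at least 100 RPM, against 13.8% of the coding genes that averaged 1 RPM or more. At least 10 RPM was reached by 18 of them, a level below the median of those coding genes (18.7 RPM). The highest were genes of the amino acid response, in which Eif2ak4 senses uncharged tRNA. Atf4, its transcription factor, had 1283, 1209 and 1616 RPM, and Asns, the asparagine synthetase that Atf4 regulates, had 1094, 1106 and 1404 RPM. Eif2s1, the kinase's substrate, had 411, 576 and 574 RPM and Ddit3, a stress transcription factor, 250, 268 and 285 RPM. The first 3 were above the median cytosolic synthetase in each library, and Ddit3 was slightly below it. Not all genes of the response were this high. The 10 looked at ranged from 3.38 to 1369 RPM on average, with a median of 186 RPM. Of these, 6 had at least 100 RPM, and Eif2ak4 itself had 29.98 RPM on average.

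The scaffold genes of the multi-synthetase complex had 231 ± 9.43 RPM (Aimp2), 130 ± 6.51 RPM (Aimp1) and 66.6 ± 11.6 RPM (Eef1e1; SD, n = 3 for each). The 3 subunit genes of the mitochondrial glutamyl-tRNA amidotransferase had 6.06 to 21.3 RPM, within the range of the mitochondrial members. Of the 4 related genes with a testable pair, limma called 2 distal, against 28.6% of all genes tested, and 1 proximal, against 11.8%. Distal were Gatc (log2 ratio 2.84, SE 0.41, limma adjusted p = 0.0248) and the deacylase gene Dtd2 (3.67, SE 0.47, limma adjusted p = 0.0241). Ptrh2, a peptidyl-tRNA hydrolase gene, was proximal (-2.78, SE 0.56, limma adjusted p = 0.0350). Like all calls of this test, these were lost when any 1 library was left out.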

How the data were processed

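The deposited lists give each site's strand, region code, signal hexamers and value in RPM; the unit and its recovery were read from the values, since the authors' files have no header line. Alignment was to mm10 with GENCODE M21, per the deposited text files; the aligner and site caller are, like the handling of reads with several matches, not given in the sources used here, so genes with near-identical copies are uncertain. Whole reads were recovered for 100% of RPM values within 0.01 reads. The region codes are not explained and served only in an alternative.

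Members and lists were chosen with earlier results of these data known. Sites were placed in the last exon of coding transcripts, another exon, an intron or 1000 bases downstream; a gene's level is the RPM summed over its sites. The deposited hexamers compared with GRCm38 (188866) all matched. A site was A-rich when the next 20 bases held 12 A or a run of 6. Tandem sites were tested with limma 3.58.1 (R 4.3.3) on log2 ratios, with the library as a block and a pseudocount of 0.05 RPM. At least 50 reads per gene and 5% per site were needed, and Benjamini-Hochberg adjustment was over all genes. The pseudocount makes a ratio with a rarely read site smaller in size. Because the RPM gave whole reads, edgeR 4.0.16 was run on them, calling 1209 genes distal and 529 proximal. The tests were checked on simulated data, in which most pairs were equal and the spread between libraries had a fixed setting. These data differ from that, so the check does not show how the tests perform on them. The exact sign-flip test over 3 libraries cannot give a two-sided p below 0.25, so none was run.

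Named genes were the 5 highest and 5 lowest cytosolic and the 3 highest and 3 lowest mitochondrial members, all members with a testable pair, those with under 50% of reads at 1 site or at least 10% in introns, the 3 most variable with at least 100 reads, and of the related genes the 4 highest and those called. The other genes and sites named (Iars, Lars, Eprs, Pars2, Fars2, Eif2ak4, the coding-exon sites and the scaffold genes) were chosen after their values were seen. Of the planned list of related genes, 1 is not reported here, and the other 21 are counted. No p is given over the list, and read counts without molecular identifiers are not independent molecules.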

Additional observations from a re-analysis of the deposited data

How the results depend on the processing

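Lars2 and Nars2 had the fewest reads of the members, and the tandem test depends on its settings. Of all genes, 1203 were called distal and 498 proximal. With TMM scaling of the sites in edgeR, under which the median log2 ratio was 0.40, against 1.33, these were 702 and 846; with a pseudocount of 0.5 RPM 1820 and 760; with a site minimum of 1% 2895 and 777, and of 10% 479 and 257; and with no read filter 0 and 0 (2541 genes at an unadjusted p under 0.05, limma). Without 1 replicate limma called 0 genes in either direction (unadjusted, 1338 to 1753 genes), whereas edgeR, added after seeing the data, called 799 to 1007 distal and 390 to 462 proximal, and limma with a variance trend, also added, 1128 to 1405 and 535 to 619. Without the replicate block 1556 genes were called distal and 660 proximal; Aars2 became a call, and no other member's call changed. Of the 12 members tested, 4 were called distal, and of all 4210 genes 1203. With all sites of the gene these were 9 of 16 members and 1314 of 5807 genes. At 1% they were 10 of 18 members and 2895 of 5777 genes, and with TMM 2 of 12 and 702 of 4210. In limma with no read filter (13 members tested) or without any 1 replicate, 0 members were called distal. Proximal calls were 3 of 12 members and 498 of 4210 genes. They were 4 of 12 and 846 of 4210 with TMM, and 4 of 12 and 554 of 4210 with the 2 most used sites. At 1% they were 4 of 18 and 777 of 5777, and at 10% 1 of 9 and 257 of 3263. For sites at least 100 bases apart they were 1 of 7 and 411 of 3741. In limma with no read filter or without any 1 replicate, 0 members were called proximal.

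Some settings chose other sites than the reported pair, and their ratios are those of other sites: for Mars2 the 2 most used sites (-1.88) and a 1% minimum (-4.16), for Tars all sites (2.59) and 1% (3.94), and for Wars2 the 2 most used sites (0.20), 10% (2.70) and every fit without replicate 3. On the reported pair of Mars2 the ratio was -0.21 with TMM, which lowered the median of all genes too. When 1 replicate was left out the ratio of Wars2 ranged from -2.55 to 3.29 in limma, from -2.55 to 3.29 with the trend and from -2.69 to 3.37 in edgeR (0.094, 0.094 and 0.105 without replicate 1, on the reported pair).

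Scaled to autosomal reads, the cytosolic and mitochondrial medians were 8.32 and 4.98 on the log2 scale, against 8.12 and 4.78, and their difference kept its size. Intronic reads of at least 10% were found in 4 members and, without A-rich sites, in 2. Without replicate 3, 1 member had under 50% of reads at 1 site. The median share of the most used site, 90.5% over all members, was 92.2% without A-rich sites and 90.1% to 92.3% without 1 replicate. In cytosolic genes intronic reads were 0.0948% in sites read in every library, and reads in other exons 1.20% by the deposited code and 1.37% without A-rich sites, against 2.57%. In mitochondrial genes intronic reads were 2.08% without A-rich sites and 1.99% in sites read in every library, and reads in other exons 0.370% by the code and 1.97% in sites read in every library, against 2.33%.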
